A study of Mus musculus with 9 samples.

Results

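Vascular endothelial growth factors (VEGFs) and the receptors that bind them were followed in mouse retinas at d2 after laser-induced retinal vein occlusion (RVO). The 9 genes were taken by symbol from a table of 48679 names: the ligands Vegfa, Vegfb, Vegfc and Pgf, the receptor tyrosine kinases Flt1 (VEGFR1), Kdr (VEGFR2) and Flt4 (VEGFR3), and the neuropilin co-receptors Nrp1 and Nrp2. All 9 were found once each and passed the filter on low counts in all 3 comparisons. The conditions compared had 3 samples each and were set up in C57BL/6J mice aged 12 weeks. In RVO eyes all veins were closed by laser after an injection of 200 mg/kg eosin Y, which sensitizes vessels to light (50 mW, spots of 50 µm, 2.5 s). The control laser-treated eyes were the other eyes of the same mice and received the same number of laser spots between the large vessels, so both laser groups carried eosin Y and laser burns. The third condition was untreated eyes of other mice. Each sample was a pool of 6 retinas from 6 mice, so n counts pools, and the pools are whole retinas in which most cells are not endothelial.

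VEGF-A is secreted by glia and pigment epithelium in the eye, is raised by hypoxia through the transcription factor HIF, and drives permeability and sprouting of vessels by activating KDR on endothelial cells. FLT1 binds VEGF-A tightly but signals weakly, and its soluble form traps the ligand. PlGF, the product of Pgf, and VEGF-B bind FLT1 but not KDR, VEGF-C acts mainly through FLT4 on lymphatic vessels, and the neuropilins bind both VEGFs and class 3 semaphorins. The counts are per gene, so the soluble and membrane forms of Flt1 and the splice forms of Vegfa were not told apart.

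Total counts were 21022997 to 28993921 in RVO pools, 18897218 to 23419497 in control pools and 12377572 to 15245869 in untreated pools. RVO replicate 2 stood apart from the other RVO samples: the chi-square per degree of freedom of its counts was 54.1 against replicate 1 and 29.3 against replicate 3, whereas other pairs within a group lay between 3.15 and 9.27. It also had the highest summed level of 10 lens genes (6474 CPM, against 199 to 3210 CPM in the other laser-treated samples and 3.43 to 27.8 CPM in untreated samples). CPM scales each library, after TMM factors, to 1000000 counts. Rod genes, which mark the retina, summed to 50590 CPM or more in every sample, but to 50590 to 54830 CPM in RVO pools, 61090 to 74280 CPM in control pools and 93990 to 96070 CPM in untreated pools. Neutrophil markers summed to 77.9 to 149 CPM in RVO pools, 30.1 to 51.8 CPM in control pools and 17.9 to 21.1 CPM in untreated pools. In the untreated pools 4 of the 8 markers were at 0, and S100a8, S100a9 and Csf3r had means of 0.07, 0.03 and 0.73 CPM. Markers of Mueller glia, which secrete VEGF-A, summed to 2428 to 3714 CPM in RVO, 4261 to 4901 CPM in control and 5350 to 5679 CPM in untreated samples, and between RVO and control eyes 7 of 9 were lower at an adjusted p under 0.05 (edgeR, none under 0.01, median log2 fold change -0.79). Pigment epithelium markers summed to 524 to 1059 CPM, 573.5 to 640 CPM and 664 to 719 CPM in the same order, with 0 of 12 under 0.05 between RVO and control eyes. Ganglion cell markers summed to 356 to 746 CPM, 1125 to 1183 CPM and 1389 to 1475 CPM, with 11 of 11 lower at an adjusted p under 0.05 between RVO and control eyes (median -1.24) and 1 of them called. Of all genes, 17.1% were lower at an adjusted p under 0.05 between RVO and control eyes, and 0.634% at one under 0.01. In ganglion cell markers RVO replicate 2 (746 CPM) lay nearer the control samples than RVO replicates 1 and 3 (356 and 446.5 CPM). The same held for Mueller glia markers (3714, against 2428 and 2850 CPM) and neutrophil markers (77.9, against 147 and 149 CPM). In pigment epithelium markers replicate 2 lay furthest from the control samples (1059, against 524 and 726 CPM). The part of these differences in the results that follow was not tested, and in whole retinas fewer cells of a type and less RNA per cell cannot be told apart.

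Between RVO and control eyes, 1 of the 9 genes was differentially expressed: Vegfa was 2.21-fold higher in RVO eyes. Of all 16874 genes tested in this comparison, 3.34% were called, 2.70% higher and 0.634% lower (quasi-likelihood test of edgeR, with p adjusted over all genes by Benjamini-Hochberg and called under 0.01). Pgf (2.10-fold higher) and Kdr (1.71-fold lower) had adjusted p between 0.01 and 0.05. With them 3 of 9 genes were under 0.05, a share close to the 34.6% of all genes under 0.05. Against untreated eyes, which both laser groups share as their reference, 2 of 9 genes were called in RVO eyes and 4 of 9 in control eyes, all of them higher. The background was high in both: 52.1% of 16380 genes were called between RVO and untreated eyes (27.4% higher, 24.6% lower), and 52.4% of 16066 genes between control and untreated eyes (27.2% higher, 25.2% lower). Pgf and Vegfa were called in RVO eyes, and Kdr, Pgf, Nrp1 and Flt1 in control eyes. The shares of the 9 genes called were thus below these backgrounds. Of higher calls alone, 2 of 9 was near the background and 4 of 9 above it. Without RVO replicate 2, which stood apart, 36.4% of 17199 genes were called between RVO and control eyes, and in the test of DESeq2 23.9% of 16918 genes were, so counts given for these settings are read against those shares.

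**Figure D1:**
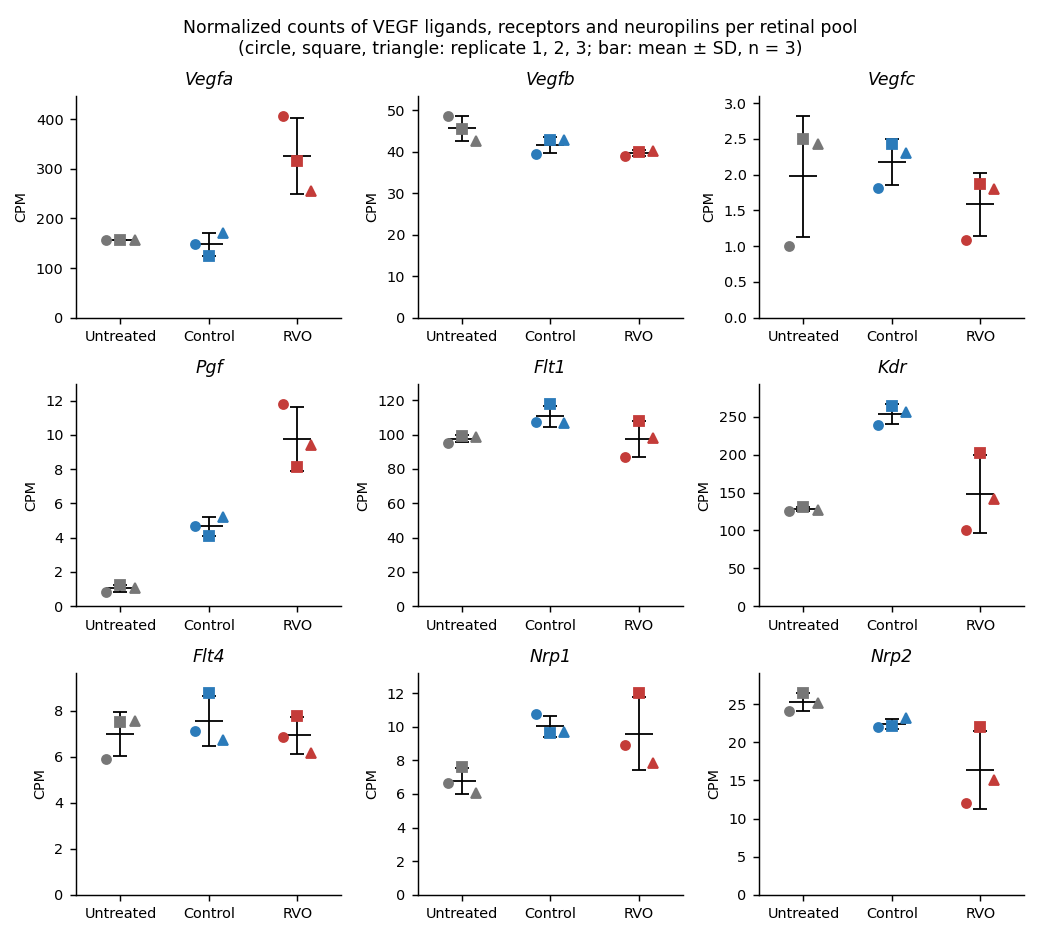
Normalized counts (CPM, linear axes from 0) of the 9 genes in each of the 9 pools, with the mean ± SD of each group of 3. Vegfa is high in the RVO pools alone (256 to 407 CPM), Pgf rises in steps from untreated (0.817 to 1.25 CPM) to RVO pools (8.11 to 11.8 CPM), and Kdr is highest in the control pools (239 to 265 CPM).

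The ligand Vegfa (chromosome 17, 46016993 to 46032369, minus strand, build GRCm38) had 407, 315 and 256 CPM in RVO replicates 1 to 3. In control samples its level was 149, 125 and 170 CPM, and in untreated samples 156, 157 and 156 CPM. All RVO samples lay above all samples of both other groups, which overlapped each other. Vegfa was higher in RVO than in control eyes by a log2 fold change of 1.14 (SE 0.18, 95% confidence interval 0.72 to 1.56, adjusted p = 0.00989). Against untreated eyes the log2 fold change in RVO was 1.09 (SE 0.15, adjusted p = 0.000388). Between control and untreated eyes it was -0.06 (SE 0.09, adjusted p = 0.529), with a 95% confidence interval of -0.25 to 0.12.

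The call of Vegfa between RVO and control eyes lay at the threshold. Without RVO replicate 2 the log2 fold change was 1.15 and the adjusted p 0.000704. Without any one of the other 5 samples the log2 fold change was 0.94 to 1.28, but the adjusted p was 0.0184 to 0.0565, and at most 29 of all genes were then called. It was not called with the size factors of DESeq2 in edgeR (adjusted p = 0.0106) or with at least 10 counts required in each sample (adjusted p = 0.0102), whereas DESeq2's own test gave 1.38e-07.

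**Figure D2:**
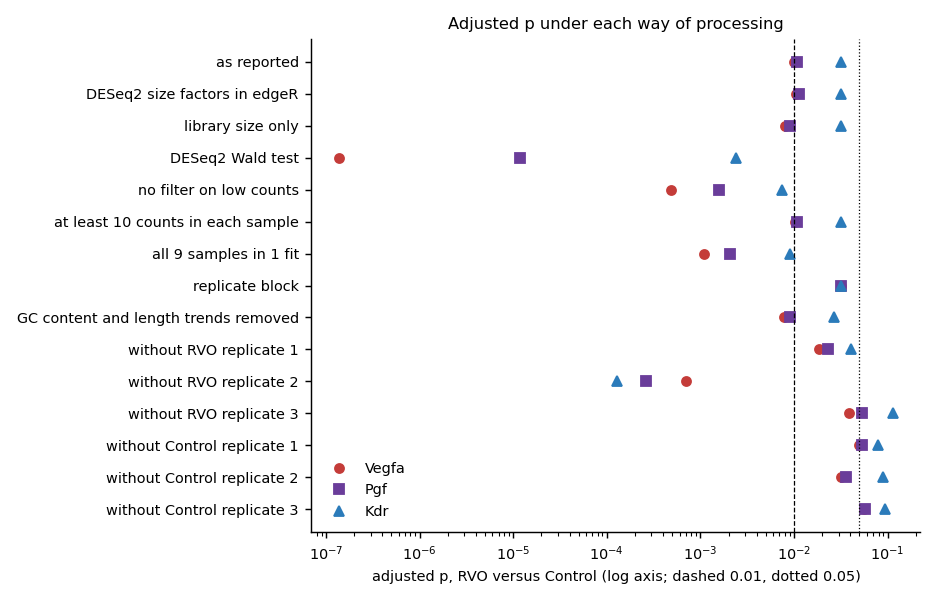
Adjusted p (log axis) of Vegfa, Pgf and Kdr between RVO and control eyes under each way of processing the counts, with dashed and dotted lines at 0.01 and 0.05. Vegfa and Pgf stand at the dashed line as reported (0.00989 and 0.0108). All 3 genes lie left of it without RVO replicate 2 and right of it without any other single sample.

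Sequence upstream of the start of Vegfa, Flt1 and Kdr is shown because these genes had the highest level among the ligands and receptors that were called. The windows are RefSeq promoter sequence (GRCm38.p6), 5′ to 3′ on the strand of the gene, limited to the 250 bases before the start and cut where annotated exons begin, at chr17:46032378-46032627, chr5:147726012-147726261 and chr5:75978459-75978705, all on the minus strand. Capitals mark the GC box, the letters GGGCGG or on the other strand CCGCCC.
Vegfa: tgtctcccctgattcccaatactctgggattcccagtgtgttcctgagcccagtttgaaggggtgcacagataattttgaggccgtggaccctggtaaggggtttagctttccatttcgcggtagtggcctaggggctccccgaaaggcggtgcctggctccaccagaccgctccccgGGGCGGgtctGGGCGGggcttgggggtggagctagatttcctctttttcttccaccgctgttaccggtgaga
Flt1: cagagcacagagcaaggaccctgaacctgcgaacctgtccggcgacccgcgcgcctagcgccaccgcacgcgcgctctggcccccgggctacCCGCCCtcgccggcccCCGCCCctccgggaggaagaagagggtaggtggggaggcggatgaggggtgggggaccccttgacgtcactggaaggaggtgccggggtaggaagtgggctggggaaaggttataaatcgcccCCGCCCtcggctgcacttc
Kdr: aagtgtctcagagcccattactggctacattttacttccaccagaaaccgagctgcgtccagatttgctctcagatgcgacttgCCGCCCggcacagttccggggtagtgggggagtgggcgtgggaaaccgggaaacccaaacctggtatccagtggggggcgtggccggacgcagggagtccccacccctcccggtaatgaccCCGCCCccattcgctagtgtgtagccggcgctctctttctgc
The core of the HIF binding site (ACGTG, or CACGT on the other strand) and the TATA motif (TATAAA, or TTTATA) were searched in the same windows. The Vegfa and Kdr windows held 2 GC boxes each and the Flt1 window 3. GC boxes occurred in 10 of 11 windows of the 9 genes and in 32.7% of 32851 windows of the same length. None of the 3 printed windows held the HIF core, which was present in 16.6% of all windows, and of the 11 windows of the 9 genes 1 held it, at an internal start of Vegfa. The TATA motif occurred once in the Flt1 window, in none of the other windows of the 9 genes and in 12.4% of all windows. The absence says only that these letters are not in these bases, since a known HIF binding site of Vegfa lies further upstream.

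Pgf (chromosome 12, 85166635 to 85177790, minus strand), which encodes a ligand of FLT1, had the largest fold changes of the 9 genes against untreated eyes. Its level was 0.817, 1.25 and 1.07 CPM in untreated samples, from 9 to 16 counts. In control samples it was 4.70, 4.09 and 5.19 CPM, and in RVO samples 11.8, 8.11 and 9.41 CPM. None of the 3 groups overlapped another. Pgf was 4.46-fold above untreated eyes in control eyes (log2 fold change 2.16, SE 0.22, adjusted p = 3.11e-06) and 9.44-fold above them in RVO eyes (log2 fold change 3.24, SE 0.24, adjusted p = 2.53e-05). The step from control to RVO eyes was a log2 fold change of 1.07 (SE 0.18, 95% confidence interval 0.65 to 1.496, adjusted p = 0.0108) and was not called. Without RVO replicate 2, which had the lowest level of the RVO samples, it was 1.17 and was called (adjusted p = 0.000263). Without any other single sample it was not called (adjusted p 0.0230 to 0.0567).

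Vegfb (chromosome 19, 6982473 to 6987651, minus strand), a ligand of FLT1, was nearly level. It had 39.03 to 40.3 CPM in RVO pools, 39.4 to 42.9 CPM in control pools and 42.7 to 48.7 CPM in untreated pools. The RVO samples all lay below the untreated samples, but the log2 fold change of -0.17 did not pass the test (SE 0.08, adjusted p = 0.0932). Against untreated eyes its value rested on how the counts were treated: with trends of GC content and length removed, Vegfb was called lower in RVO (log2 fold change -1.06) and in control eyes (log2 fold change -0.95). The GC content of its longest transcript, 62.6%, was the highest of the 9 genes.

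Vegfc (chromosome 8, 54077606 to 54187096, plus strand), the ligand of FLT4, was near the lower limit of the data, with 11 to 55 counts per sample. It had 1.08 to 1.87 CPM in RVO pools, 1.81 to 2.43 CPM in control pools and 0.999 to 2.50 CPM in untreated pools, and all groups overlapped. The 95% confidence interval of its log2 fold change between RVO and control eyes ran from -1.07 to 0.13, which includes a 2-fold decrease.

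**Figure D3:**
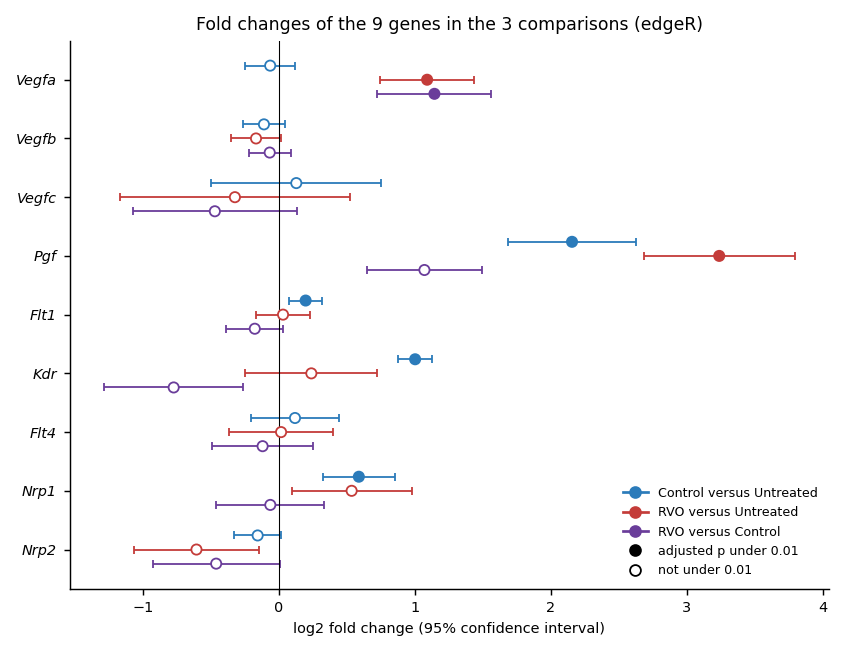
Log2 fold changes of the 9 genes (points) with 95% confidence intervals in the 3 comparisons, filled where the adjusted p was under 0.01. Vegfa moves only in the 2 comparisons with RVO eyes (1.09 and 1.14), Kdr rises in control eyes (1.0) and falls short of that level in RVO eyes (-0.77 against control), and the intervals of Flt4 include 0 in every comparison.

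Among the receptors, Kdr (chromosome 5, 75932827 to 75978458, minus strand), which carries most of the VEGF-A signal in endothelium, was higher in control eyes than in both other groups in every sample. Control samples had 239, 265 and 257 CPM, and untreated samples had 126, 132 and 127 CPM. In RVO samples it was 100.6, 203 and 142 CPM, so that the RVO samples differed more among themselves (SD 51.3 CPM) than those of the other groups (SD 12.9 and 2.93 CPM). All control samples lay above all others, while the RVO samples lay on both sides of the untreated samples. Kdr was 2.0-fold above untreated eyes in control eyes (log2 fold change 1.00, SE 0.06, adjusted p = 6.54e-08). In RVO eyes the log2 fold change was 0.24 against untreated (SE 0.21, adjusted p = 0.342, 95% confidence interval -0.25 to 0.72) and -0.77 against control eyes (SE 0.22, adjusted p = 0.0318). RVO replicate 2 had the highest Kdr of its group. Without it, Kdr was lower in RVO than in control eyes by a log2 fold change of -1.08 and was called (adjusted p = 0.00013). Without any other single sample the log2 fold change was -0.815 to -0.568 and was not called (adjusted p 0.0403 to 0.113).

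Flt1 (chromosome 5, 147561604 to 147726011, minus strand) varied little. It had 87.1, 108 and 97.9 CPM in RVO pools, 107, 118 and 107 CPM in control pools and 95.3, 99.3 and 98.4 CPM in untreated pools. The control samples lay above the untreated samples, and the RVO samples overlapped both. Flt1 was 1.15-fold above untreated eyes in control eyes (log2 fold change 0.20, SE 0.06, adjusted p = 0.00868), a call that was lost with the size factors of DESeq2, in DESeq2's test, with all 9 samples in 1 fit, with GC content and length trends removed, and without any one sample other than control replicate 3 (log2 fold change 0.15 to 0.23). The log2 fold change from control to RVO eyes was -0.18 (SE 0.09, adjusted p = 0.163).

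Flt4 (chromosome 11, 49609263 to 49652739, plus strand), the receptor of VEGF-C, had 6.16 to 7.77 CPM in RVO pools, 6.74 to 8.79 CPM in control pools and 5.90 to 7.57 CPM in untreated pools. All groups overlapped, and the log2 fold changes were between -0.12 and 0.12. Of 6 lymphatic endothelial markers 4 passed the filter, and 1 was at 0 in all samples. Against untreated eyes 1 rose and 2 fell in each laser group (median log2 fold change -1.5 in RVO and -0.28 in control eyes). Of all genes, 27.4% rose and 24.6% fell in RVO, and 27.2% rose and 25.2% fell in control eyes. Between RVO and control eyes 1 rose and 0 fell (median -1.15), against 2.70% and 0.634% of all genes. The marker Pdpn, which other cells also express, rose in control (3.22-fold) and RVO eyes (6.12-fold) against untreated eyes. Prox1, which retinal neurons and glia also express, fell 1.60-fold in control and 4.48-fold in RVO eyes. Reln fell 1.17-fold and 2.03-fold in the same order. Mean levels of Lyve1 were 12.1 CPM in untreated, 9.38 CPM in control and 3.03 CPM in RVO eyes.

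The co-receptor Nrp1 (chromosome 8, 128358604 to 128503363, plus strand) had 6.63, 7.58 and 6.07 CPM in untreated samples. Its level was 10.8, 9.65 and 9.67 CPM in control and 8.89, 12.0 and 7.87 CPM in RVO samples. Both laser groups lay above the untreated samples and overlapped each other. Nrp1 was called in control eyes (1.5-fold, log2 fold change 0.59, SE 0.12, adjusted p = 0.00101) and not in RVO eyes (log2 fold change 0.54, SE 0.19, adjusted p = 0.0363). The call in control eyes was lost with all 9 samples in 1 fit. The difference between the laser groups was a log2 fold change of -0.06 (SE 0.17, adjusted p = 0.794). The gene overlaps the microRNA gene Mir1903 on the same strand by 80 exon bases.

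Nrp2 (chromosome 1, 62703285 to 62818695, plus strand), the co-receptor of VEGF-C and of SEMA3F, was highest in untreated samples, with 24.2, 26.5 and 25.2 CPM. Control samples had 22.0, 22.1 and 23.1 CPM, and RVO samples had 12.0, 22.0 and 15.0 CPM. The groups did not overlap, although RVO replicate 2 lay just under the control samples. The log2 fold change in RVO eyes was -0.46 against control (SE 0.20, adjusted p = 0.11) and -0.61 against untreated eyes (SE 0.20, adjusted p = 0.0267). Without RVO replicate 2 it was -0.76 and -0.87, and both were called. Without any other single sample neither was called (adjusted p 0.198 to 0.271 against control and 0.05395 to 0.08995 against untreated eyes). Counted by overlap alone, 4 of the 9 genes had separate groups between RVO and control eyes, against 52.4% of all genes. Between RVO and untreated eyes 5 of 9 were separate, against 73.2% of all genes, and 66.9% of all genes were under an adjusted p of 0.05, against 4 of 9. Between control and untreated eyes 5 of 9 were separate, against 69.8% of all genes.

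Levels of different genes were compared per length, as CPM per kb of merged exons, which rests on the annotation and not on the isoforms present. In untreated samples the order was Vegfa (36.5 ± 0.18, SD, n = 3), Vegfb (28.4 ± 1.86), Kdr (14.2 ± 0.32), Flt1 (7.23 ± 0.15) and Nrp2 (2.14 ± 0.10), followed by Flt4, Vegfc and Nrp1 between 0.69 and 0.85, whose samples overlapped, and Pgf (0.36 ± 0.07). In control samples Vegfa (34.5 ± 5.26), Kdr (28.1 ± 1.43) and Vegfb (26.0 ± 1.22) overlapped from neighbour to neighbour. In RVO samples Vegfa stood at 76.1 ± 17.7, above Vegfb (24.7 ± 0.39) and Kdr (16.4 ± 5.68), with no overlap between neighbours down to Pgf (3.37 ± 0.64) and Nrp2 (1.38 ± 0.43). Pgf stood last of the 9 genes in untreated samples and above Nrp2, Nrp1, Flt4 and Vegfc in RVO samples. Of the level of the 4 ligands together, Vegfa made up 72.0% ± 4.72 in RVO pools, 54.6% ± 4.02 in control pools and 55.3% ± 1.25 in untreated pools, while Pgf stayed at 3.65% or less in every sample. Kdr made up 75.5% ± 0.87 of the 3 receptors in control, 66.1% ± 5.52 in RVO and 63.7% ± 0.54 in untreated samples.

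**Figure D4:**
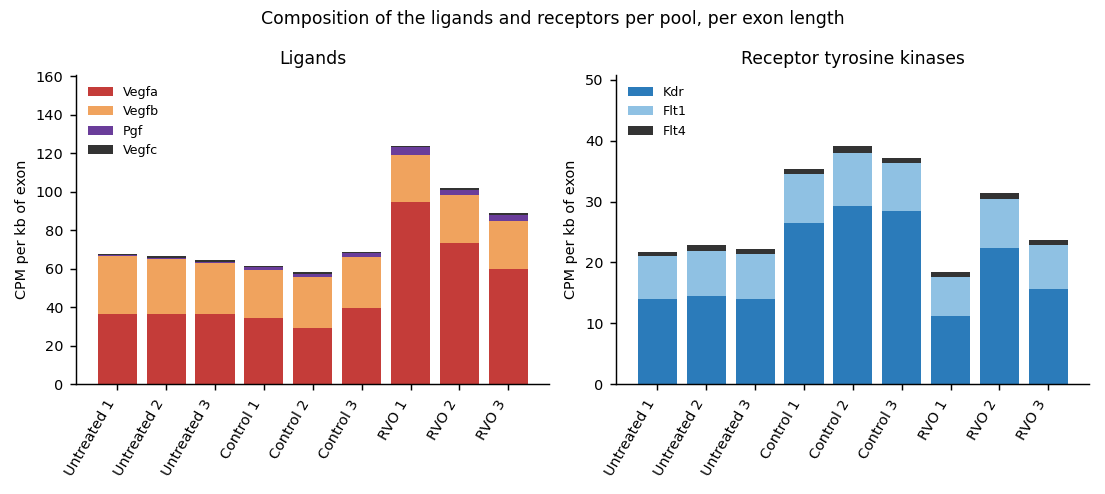
Stacked levels of the ligands (left) and receptor tyrosine kinases (right) in each pool, in CPM per kb of exon. The ligand sum is raised in RVO pools through Vegfa (59.8 to 94.9), and the receptor sum is raised in control pools through Kdr (26.5 to 29.3).

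The balance of the receptors was compared within each pool, where scaling has no effect. The ratio of Flt1 counts to Kdr counts was 0.756, 0.755 and 0.775 in untreated, 0.448, 0.445 and 0.416 in control and 0.866, 0.533 and 0.691 in RVO samples. The control samples lay below all others. On the log2 scale the ratio was 0.65 higher in RVO than in control eyes and 0.80 lower in control than in untreated eyes (two-sided exact permutation test, p = 0.1 each, the smallest p that 3 against 3 samples allow). Between RVO and untreated eyes it differed by -0.16 (exact permutation p = 0.7).

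Summed markers of endothelial cells were, as Kdr was, highest in control samples. Their 16 genes summed to 146 to 179 CPM in control, 88.4 to 130 CPM in RVO and 86.9 to 89.8 CPM in untreated samples, and none was at 0 in any group. Between control and untreated eyes 10 of 16 rose and 0 fell, against 27.2% and 25.2% of all genes. The median log2 fold change of the markers was 0.82 against 0.01 over all genes tested. The highest fold changes of the markers were those of Slc38a5 (4.46-fold), Tie1 (3.76-fold), Cldn5 (3.53-fold) and Eng (2.70-fold). Between RVO and untreated eyes 5 rose and 1 fell, with a median of 0.35, against 27.4% and 24.6% of all genes that rose and fell. In RVO against control eyes 0 of 16 were called by edgeR at an adjusted p under 0.01, against 3.34% of all genes, with a median of -0.73. At an adjusted p under 0.05 2 were higher and 6 lower, against 17.5% and 17.1% of all genes. In DESeq2's test 1 rose and 5 fell, with 23.9% of all genes called, and without RVO replicate 2 edgeR called 1 as higher and 9 as lower, with 36.4% of all genes called. Relative to the geometric mean of the 16 markers, Kdr was level, with log2 ratios of 4.84 to 5.09 in all 9 samples, and the groups differed by 0.02 to 0.07 (exact permutation p between 0.3 and 0.9). In linear terms Kdr counts were 28.6 to 34.04 times that mean. Which cells of the whole retina held the Kdr counts was not tested, so the ratio is not a level per endothelial cell.

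This level ratio depended on the markers chosen. Pecam1 and Cdh5, which encode junction proteins of endothelium, overlapped in level between RVO (15.4 to 16.8 and 9.75 to 10.5 CPM) and control samples (13.7 to 17.0 and 9.16 to 10.1 CPM), unlike Tie1 (3.06 to 4.54 and 6.97 to 7.32 CPM). Relative to these 3 genes alone, Kdr was lower in RVO than in control eyes by a log2 ratio of -0.58, lower in RVO than in untreated eyes by -0.86, and lower in control than in untreated eyes by -0.29 (exact permutation p = 0.1 each). Relative to the 16 markers, Flt1 was lower in control (log2 ratio 3.67 to 3.83) than in untreated samples (4.49 to 4.54) and RVO samples (4.01 to 4.80), with differences of -0.75 and 0.66 (exact permutation p = 0.1 each). The second difference also depended on the markers: from control to RVO eyes it was 0.39 with the summed counts of the 16 markers (exact permutation p = 0.1) and 0.07 relative to Pecam1, Cdh5 and Tie1 alone (exact permutation p = 0.4). Relative to these 3 genes Flt1 was lower than in untreated eyes by -1.02 in RVO and -1.09 in control eyes (exact permutation p = 0.1 each), against -0.08 in RVO eyes relative to the 16 markers (exact permutation p = 0.8).

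**Figure D5:**
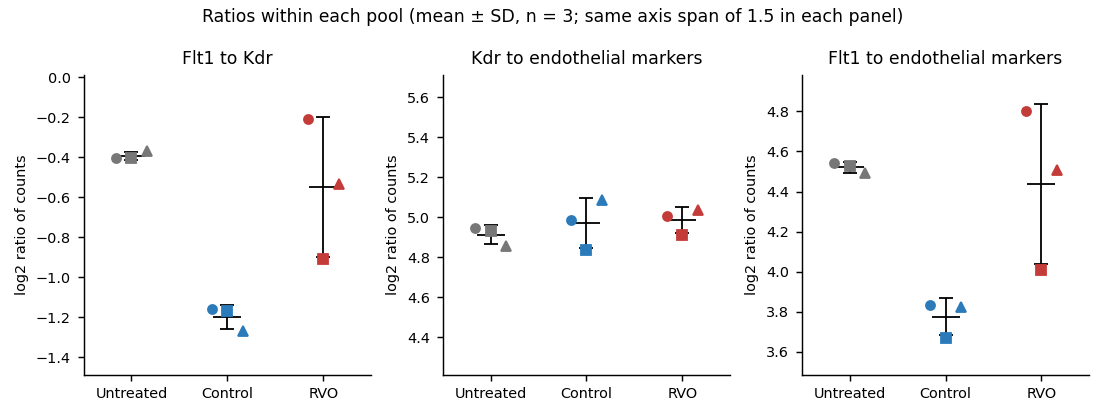
Log2 ratios of counts within each pool, with the mean ± SD of each group of 3 and an equal span on each vertical axis. Flt1 relative to Kdr and to the 16 endothelial markers is lowest in control pools, while Kdr relative to the markers lies between 4.84 and 5.09 in all pools. Relative to Pecam1, Cdh5 and Tie1 alone (not plotted), Flt1 differed by 0.07 between RVO and control pools.

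Of 22 modulators and co-receptor partners of VEGF, 6 rose and 0 fell in RVO against control eyes, against 2.70% and 0.634% of all genes. The median log2 fold change was 0.58 against 0.02 over all genes. Without RVO replicate 2, 10 rose and 1 fell, where 36.4% of all genes were called. The 6 included Cyr61 (3.43-fold) and Ctgf (2.0-fold), matricellular proteins of which the latter binds VEGF-A, Angptl4 (3.03-fold), a secreted regulator of lipoprotein lipase and permeability, and Thbs1 (2.57-fold), an inhibitor of angiogenesis. Against untreated eyes 15 of 22 were higher in RVO and 12 of 21 in control eyes, and 0 were lower in both. Of all genes, 27.4% and 27.2% were higher. Sdc1, a heparan sulfate proteoglycan, was 14.9-fold and 4.6-fold higher.

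Genes of the intracellular VEGF signal moved in both directions. Of 29 tested, 3 rose and 1 fell in RVO against control eyes (median log2 fold change 0.07), against 2.70% and 0.634% of all genes. Without RVO replicate 2, 7 rose and 5 fell, a share of the list near the 36.4% of all genes called there. Nfatc1, a transcription factor activated by calcium, was 1.97-fold higher, Pxn, which encodes the focal adhesion protein paxillin, 1.49-fold, and Mapkapk2, a kinase downstream of p38, 1.41-fold, whereas Prkca, a protein kinase C that also marks rod bipolar cells, fell 1.67-fold. The markers of bipolar and amacrine cells summed to 638 to 1082 CPM in RVO and 1418 to 1507 CPM in control samples. At an adjusted p under 0.05 7 of 10 were lower (median log2 fold change -0.97), against 17.1% of all genes, and none of the 10 was under 0.01 in edgeR. Their part in the fall of Prkca was not tested. Against untreated eyes 12 rose and 9 fell in RVO and 13 rose and 9 fell in control eyes, with Hspb1, a small heat shock protein, 5.39-fold and 2.92-fold higher. Of all genes, 27.4% rose and 24.6% fell in RVO, and 27.2% rose and 25.2% fell in control eyes.

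Genes listed as markers of tip cells, the leading cells of vessel sprouts, were called only as higher. Which cells of the whole retina expressed them was not tested, so their level is not a measure of sprouting. Between RVO and control eyes 2 of 13 rose, against 2.70% of all genes, with a median log2 fold change of 0.74 over the list. They were Adm (8.46-fold), which encodes a vasodilating peptide, and Apln (4.69-fold), the ligand of the apelin receptor. Without RVO replicate 2, 7 of 13 rose, with 36.4% of all genes called. Against untreated eyes 10 of 12 rose in RVO and 8 of 11 in control eyes, where 27.4% and 27.2% of all genes were higher. Adm was 32.3-fold and 3.79-fold, Apln 11.1-fold and 2.35-fold, and Igfbp3 10.8-fold and 4.01-fold higher. Esm1 was 88.4-fold higher in RVO eyes, from a mean of 0.06 CPM in untreated eyes. Of 21 genes of the HIF pathway and hypoxia response, 5 rose and 0 fell in RVO against control eyes (median log2 fold change 0.40). Of all genes, 2.70% rose and 0.634% fell between these eyes. Without RVO replicate 2, 9 rose and 3 fell, with 36.4% of all genes called. Car9, a carbonic anhydrase, was 11.9-fold, Ndufa4l2, a mitochondrial protein, 5.58-fold, Egln3, a prolyl hydroxylase that acts on HIF, 4.52-fold, and the glucose transporter Slc2a1 1.99-fold higher. In control against untreated eyes Car9 was 7.90-fold and Ndufa4l2 1.96-fold higher, while Egln3 had means of 7.59 and 7.10 CPM. Car9 was near the lower limit of the data in these eyes (means of 0.67 and 0.09 CPM). Against untreated eyes 11 rose and 3 fell in RVO, and 6 rose and 7 fell in control eyes. Of all genes, 27.4% rose and 24.6% fell in RVO, and 27.2% rose and 25.2% fell in control eyes.

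Across all 9 samples, the genes most like each called gene were sought among 15851 genes by the Pearson correlation of log2 CPM, as a description of 9 points that fall into 3 groups. The nearest to Vegfa were Fam162a (r = 0.98), Egln3 (0.98), Loxl2 (0.97), Pfkfb3 (0.97) and Syce2 (0.97). Fam162a had mean levels of 80.2 CPM in RVO pools, 34.8 CPM in control pools and 33.5 CPM in untreated pools. Nearest to Kdr were Myh14 (0.99), Ttyh3 (0.99), Dynll2 (0.99), Lfng (0.98) and Sema3g (0.98), with Lfng at 10.2, 17.7 and 10.1 CPM in RVO, control and untreated samples. Nearest to Pgf were Kansl2, Armc5, Rubcn, Tm9sf1 and Cbx8 (0.99 or more each), which changed far less in size: Armc5 had 45.4, 34.4 and 20.5 CPM in RVO, control and untreated samples. Flt1 was most like Fam43a (0.98), Gdf11, Apcdd1, Gm973 and Sulf2, and Nrp1 was most like Fbxl8 (0.97), Mid1ip1, Birc5, Tmem200b and Gdap10.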

How the data were processed

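RNA of 9 retinal pools was poly-A selected and sequenced as single reads of a strand-marking library. The authors mapped the reads with STAR 2.5.2b, counted them per gene of Gencode vM11 (build GRCm38) with featureCounts (Subread 1.5.1, per the labels) and deposited raw counts, 1 column per sample. Whether strand was used and how reads matching several genes were treated was not given in the sources used here. Libraries limit precision as their counts in the results show. Of the listed names 92 were spike-ins with 0 counts, and 0 columns were left out.

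Each pair of groups was fitted separately in R 4.3.3 with edgeR 4.0.16 (filterByExpr, TMM, quasi-likelihood test), and genes were called where p, adjusted by Benjamini-Hochberg over all genes, was under 0.01. TMM factors were 0.89 to 1.08, and the biological coefficient of variation was 7.49% to 14.4%. On simulated counts for RVO and control samples, 80.8% of 99 genes changed 2-fold and 96.8% of 95 changed 4-fold were found among 16661 genes. The simulation gave every gene the same dispersion and held no sample that stood apart as RVO replicate 2 did. Its shares therefore do not give the power on the real counts. Fold changes have SEs and t intervals of the fit. Ratios were tested with two-sided exact permutation tests. Positions, lengths and overlaps came from GENCODE vM21, in which 46366 of 48679 names matched 1 gene, and promoters from RefSeq, matched for all 9 genes. Alternatives were DESeq2 1.42.0, other scalings, filters, thresholds and markers, all 9 samples in 1 fit, the replicate number as a block, removal of GC and length trends, and each sample left out.

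The 9 genes, the 5 lists of the pathway and 12 lists of cell markers were chosen with earlier results of these data known. All 9 genes are given. Most genes named from a list are among its 4 called genes with the largest change in a comparison. With fewer than 2 called, they are among the 2 with the largest change. Not all such genes are named in each comparison. For each called gene the 5 genes with the most similar profile are named.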

Additional observations from a re-analysis of the deposited data

How the results depend on the processing

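Pools and not mice were the replicates, and the untreated libraries were the shallowest, so Vegfc and Pgf rested on few counts there. Between RVO and control eyes the number of the 9 genes called changed with the processing: 3 were called at an adjusted p under 0.05, in DESeq2's test, without a filter on low counts and with all 9 samples in 1 fit, 2 with library size only and with GC content and length trends removed, and 0 with DESeq2's size factors in edgeR, with at least 10 counts in each sample and with the replicate block, in which 4, 3 and 4 of the 9 had an unadjusted p under 0.05. Of all genes, 7872 of 16874, 7511 of 15568 and 7227 of 16874 had such a p in these settings, in the same order. Leaving out 1 sample gave 0 to 4. Wherever 0 were called, 3 of 9 had an unadjusted p under 0.05, as did 6100 to 6916 of the 17149 to 17270 genes tested. The shares of the 9 genes were near or below those of all genes. These counts moved with the share of all genes called, which was 34.6% at 0.05, 23.9% in DESeq2's test, 11.1% without a filter, 22.5% with all 9 samples, 5.29% with library size only, 8.93% with trends removed, 2.37% with DESeq2's size factors, 2.81% with at least 10 counts, 0% with the replicate block (7227 genes at an unadjusted p under 0.05) and 0% to 36.4% with 1 sample left out. Without RVO replicate 2 the 4 called were Vegfa, Pgf, Kdr and Nrp2. Between RVO and untreated eyes 4 were called at an adjusted p under 0.05 and with GC content and length trends removed, and 1 with at least 10 counts in each sample, which Pgf could not meet. Between control and untreated eyes 2 were called with all 9 samples in 1 fit. The labels did not say whether same-numbered RVO and control samples held eyes of the same mice. Deviations from group means correlated at -0.137, -0.135 and 0.0794 in same-numbered samples and at -0.214 to 0.226 in differently numbered samples. With 3 samples per group these correlations cannot decide whether the samples were paired. The replicate block gave Vegfa a log2 fold change of 1.13 between RVO and control eyes, which was not called (edgeR, adjusted p = 0.0314). The block also called Nrp2 between RVO and untreated eyes and changed no other call of the 9 genes. The counts of lists without RVO replicate 2 and in DESeq2's test were chosen after seeing the data.

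Several small log2 fold changes turned in sign, and none of these was called as reported or where its sign turned. Vegfb was called lower in RVO and in control against untreated eyes in another setting, with GC content and length trends removed. With library size only, which raised the median of all genes to 0.22 in RVO and 0.19 in control against untreated eyes, Vegfb was at 0.0465 in RVO and 0.0647 in control eyes, Vegfa at 0.11 and Nrp2 at 0.0172 in control eyes. With all 9 samples in 1 fit Flt1 was at -0.00042 and Flt4 at -0.0157 in RVO against untreated eyes. With GC content and length trends removed Flt4 was at -0.25 in RVO and -0.27 in control against untreated eyes, and Nrp1 at 0.0134 between RVO and control eyes. Leaving out 1 sample gave, between RVO and control eyes, -0.27 to 0.0492 for Nrp1 and -0.22 to 0.0011 for Flt4. Between RVO and untreated eyes it gave -0.031 to 0.12 for Flt1, -0.036 to 0.47 for Kdr and -0.0941 to 0.11 for Flt4, and between control and untreated eyes -0.17 to 0.0402 for Vegfa, -0.0043 to 0.20 for Flt4 and -0.17 to 0.30 for Vegfc. The log2 ratio of Flt1 to Kdr between RVO and untreated eyes ranged from -0.33 to 0.022 and that of Flt1 to the endothelial markers from -0.26 to 0.13. The ratio of Kdr to the endothelial markers ranged from -0.051 to 0.0747 between RVO and control and from -0.00034 to 0.13 between control and untreated eyes. With summed counts of the markers it was -0.26 between RVO and control and -0.0922 between RVO and untreated eyes, and with Pecam1, Cdh5 and Tie1 alone it was -0.58, -0.86 and, between control and untreated eyes, -0.29. The cause was not tested.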

Other observations

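Partners of the neuropilins in axon and vessel guidance also differed between the groups. Of 14 semaphorins, plexins and related genes, 1 rose and 0 fell between RVO and control eyes (edgeR, adjusted p under 0.01). Of all genes, 2.70% rose and 0.634% fell there. The 1 gene that rose was Plxnd1, the receptor of SEMA3E in endothelium, which was named after its values were seen. Without RVO replicate 2, 2 rose and 6 fell, where 36.4% of all genes were called. Against untreated eyes 5 rose and 4 fell in RVO and 7 rose and 3 fell in control eyes. Of all genes, 27.4% rose and 24.6% fell in RVO, and 27.2% rose and 25.2% fell in control eyes. Plxnd1 was raised 4.76-fold in RVO and 3.18-fold in control eyes, and Sema3b 3.40-fold and 2.42-fold. Sema3d, a secreted ligand of the neuropilins, was 4.42-fold lower in RVO and 1.73-fold lower in control eyes. Sema3g, a ligand expressed by endothelium, rose 2.68-fold in control eyes, and it was also among the 5 genes most like Kdr.

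Vegfd, the remaining ligand of FLT4, had 13, 26 and 17 counts in RVO, 12, 10 and 10 counts in control and 9, 4 and 4 counts in untreated samples.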
